A study of Bos taurus with 20 samples.

Results

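The growth hormone and insulin-like growth factor (IGF) axis was followed in Musculus longissimus dorsi, the long back muscle, of 20 bulls. The axis was taken as 9 gene symbols: SOCS2, GHR, STAT5A, STAT5B, IGF1, IGF2, IGF1R, IGFBP3 and IGFBP5. All probe sets that the platform annotation gives to exactly 1 of these symbols were used, which gave 26 probe sets for 8 of the genes, out of 9155 genes on the array with such a probe set. No probe set carried the symbol STAT5A, and it was not analysed here. A total of 13 probe sets from 7 genes passed the filter on dim signal (mean log2 signal among the upper 60% of the array) and are the ones called tested here. The other 13, from 4 genes, were fitted only in an alternative without the filter, which took in all 24016 probe sets. SOCS2 was chosen because it was lower in muscle with high intramuscular fat (IMF), so its difference between the fat groups is a description and no test of it is given. The question was whether the receptor, STAT, ligand and binding protein genes moved with it.

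The bulls were crossbreds, F2 animals of Holstein x Charolais (dairy cattle crossed with beef cattle). A total of 10 bulls had high and 10 had low IMF, the fat laid down within the muscle, and each bull gave 1 Affymetrix array. The sources used here give no IMF value that parts the groups and no age, feeding or slaughter data. In each IMF group, 5 bulls had a title number with an S before it and 5 had a number without. The meaning of the S is not stated in the labels, and the 2 sets, called the title series here, were treated as a possible batch. Single bulls are named by IMF group and replicate, where replicates 6 to 10 have S titles.

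Growth hormone binds its receptor GHR at the cell surface, and the kinase JAK2 on the receptor then phosphorylates STAT5A and STAT5B, which enter the nucleus and turn on genes such as IGF1, CISH and SOCS2. SOCS2 closes the loop: it binds the phosphorylated receptor and brings it to a ubiquitin ligase for breakdown, and mice without Socs2 grow to a giant size. IGF1 and IGF2 act through the receptor IGF1R, and the IGF binding proteins hold the ligands in the tissue and set how much of them reaches the receptor. In skeletal muscle, IGFs made in the tissue itself support fibre growth.

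The arrays carried the signal of skeletal muscle. The summed intensity of 8 muscle fibre genes with a probe set, of 11 listed, ran from 103336 to 119421 in high IMF and from 108310 to 123845 in low IMF. Array medians lay between 51.6 and 67.6, and the dimmest arrays were those of high IMF replicates 6 (51.6) and 9 (56.6). Median correlations between arrays were 0.956 within S titles, 0.961 within the other titles and 0.931 between them. The mean intensity of the bioB hybridisation spikes, which are added to the sample, ran from 204 to 355 in S titles and from 397 to 482 in the others. Albumin, a liver transcript, exceeded 2000 on 4 arrays, those of high IMF replicates 6, 8 and 10 and low IMF replicate 3. Each array holds RNA from a whole piece of muscle, so fewer cells of a type and less RNA per cell cannot be told apart. Where a gene had several probe sets, they are numbered by mean signal from the brightest (probe set 1), and the plots give their identifiers. All levels below are deposited intensities or log2(intensity + 1), and no level is compared between probe sets.

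SOCS2 was lower in high IMF muscle in both title series, with overlap between the groups in each. Among S titles, SOCS2 had intensities of 23.68, 66.24, 100.57, 49.25 and 83.69 in high IMF, against 126.28, 87.28, 214.59, 141.19 and 190.81 in low IMF. Among the other titles it had 57.62, 61.01, 119.88, 127.3 and 112.36 in high IMF, against 114.57, 119.6, 95.26, 267.11 and 135.97 in low IMF. Of the 10 high IMF bulls, 6 lay below the lowest low IMF bull, and the highest value of all belonged to low IMF replicate 4. On the log2 scale the mean of SOCS2 was 6.20 ± 0.73 in high IMF muscle, against 7.15 ± 0.51 in low IMF muscle (SD over 10 bulls each), which differ by -0.95 (SE 0.26). The difference was -1.31 among S titles and -0.59 among the others. High IMF replicate 6, the bull with the lowest SOCS2, also had the dimmest array. Without the 2 arrays of lowest median signal the log2 difference was -0.68, and with every array centred on its median it was -0.91. It was -0.96 in a fit with a title series term that left out the 4 arrays of high albumin. These values describe the contrast that SOCS2 was picked from.

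**Figure D1:**
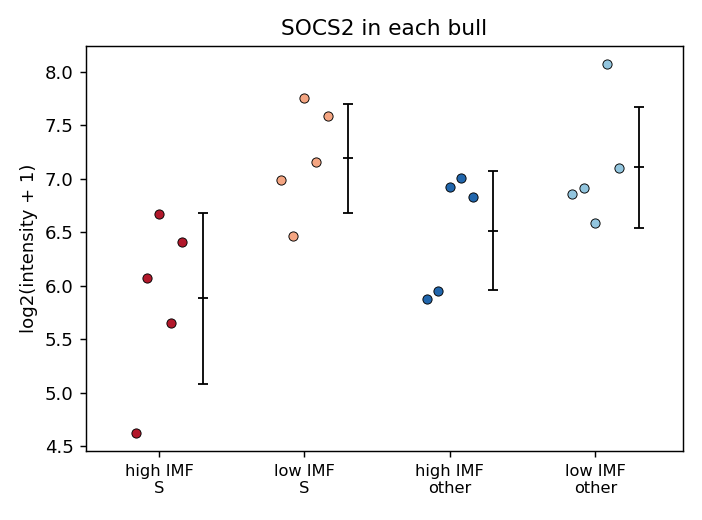
SOCS2 signal of each bull, as log2(intensity + 1) of the deposited value, with S titles in the left pair of columns and the other titles in the right pair, high IMF left of low IMF in each pair. Points are bulls and bars are the mean ± SD of 5 bulls; high IMF lies lower in both pairs, with overlap.

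None of the other genes of the axis passed the test between high and low IMF. Of 12 tested probe sets from 6 genes, 0 were called by limma at an adjusted p (Benjamini-Hochberg) under 0.05, and 0 had an unadjusted p under 0.05. Over the array the share called was 0%, and 1.66% of probe sets had an unadjusted p under 0.05. An unpaired t-test on the same values also called 0 of the 12, with 1.79% of all probe sets under an unadjusted 0.05. Neither test had a term for title series. With that term limma called 0% of the array, and 7.34% had an unadjusted p under 0.05. IGF2 probe set 1 was among these, as given below. A total of 5 of the probe sets were higher and 7 lower in high IMF, and their median log2 difference was -0.03, as it was over all 14409 tested probe sets. The high and low IMF values overlapped for all 13 tested probe sets of the axis, in the pooled bulls (0% of the array without overlap), within S titles (1.33%) and within the other titles (0.59%). Without the filter, 0 of the 13 dim probe sets were called by limma (0% of the array) and 0 had an unadjusted p under 0.05 (2.18% of the array).

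GHR, the growth hormone receptor, had 11 probe sets, of which 3 were tested. GHR probe set 1 had a lowest, median and highest intensity of 52.4, 145.8 and 479.0 in high IMF and 62.0, 203.2 and 514.3 in low IMF. Its log2 difference was -0.19, with a 95% interval from -1.16 to 0.77. Once the title series was a term of the model, the interval ran from -0.62 to 0.23. For probe set 2 the log2 difference was 0.03 (-0.36 to 0.43), and for probe set 3 it was -0.06 (-0.25 to 0.14). The other 8 GHR probe sets were dim, with group medians between 4.8 and 32.0 in intensity, and entered only the fit without the filter.

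STAT5B, the transcription factor through which the receptor acts on genes, was at nearly the same level in both fat groups. It had a lowest, median and highest intensity of 123.0, 166.5 and 213.1 in high IMF and 115.3, 182.9 and 252.9 in low IMF. Its log2 difference was -0.01 (95% interval -0.31 to 0.30). With a term for title series the interval was -0.20 to 0.18, or 0.872 to 1.13-fold. Centring the arrays on their medians turned this small difference to 0.03.

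IGF1, the ligand made in response to growth hormone, was measured by a pair of tested probe sets. For probe set 1 the lowest, median and highest intensities were 130.5, 165.2 and 212.2 in high IMF and 131.4, 150.3 and 198.2 in low IMF, a log2 difference of 0.07 (95% interval -0.13 to 0.26). For probe set 2 they were 95.4, 126.5 and 187.7 in high IMF and 44.4, 113.2 and 142.3 in low IMF. The log2 difference of probe set 2 was 0.29 (-0.05 to 0.63), with an unadjusted p of 0.0877 and an adjusted p of 0.9997 by limma. Its lowest value, 44.4, came from low IMF replicate 7, and without that bull the log2 difference was 0.16. The remaining 2 IGF1 probe sets had group medians of 13.2 or less and entered only the fit without the filter.

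IGF2, a growth factor of fetal and adult tissue whose gene is imprinted, was tested with 3 probe sets. For probe set 1, S titles had intensities of 363.8, 351.4, 384.3, 329.3 and 497.0 in high IMF, against 510.0, 459.2, 640.7, 455.4 and 476.4 in low IMF. The other titles had 142.4, 172.9, 174.8, 196.0 and 201.5 in high IMF, against 195.7, 163.4, 229.2, 209.0 and 176.9 in low IMF. Of the S-titled high IMF bulls, all but replicate 10 lay below every S-titled low IMF bull, while the groups were mixed among the other titles. The pooled log2 difference was -0.27 (95% interval -0.86 to 0.33). With a term for title series the same difference had an unadjusted p of 0.0113, and it did not pass limma's adjustment (adjusted p = 0.676). In that model 7.34% of all probe sets had an unadjusted p under 0.05 and 0% were called. Within S titles the log2 difference was -0.40 (unadjusted p = 0.0147, adjusted p = 0.624 by limma), and within the others -0.13 (adjusted p = 0.991). Of all probe sets, 7.92% within S titles and 3.56% within the others had an unadjusted p under 0.05.

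The other tested IGF2 probe sets did not share a pattern. Probe set 2 differed by -0.15 on the log2 scale (95% interval -0.41 to 0.11), with the same sign as probe set 1 in both series. Its log2 means were 5.87 in high and 6.14 in low IMF within S titles, and 5.73 and 5.76 within the others. Probe set 3 had a pooled log2 difference of 0.00 that was made of opposite values, 0.38 within S titles and -0.38 within the others. At this probe set S titles had intensities of 63.8, 54.6, 61.4, 91.2 and 73.5 in high IMF, against 56.3, 43.2, 47.8, 71.1 and 45.1 in low IMF. The other titles had 31.6, 22.7, 26.2, 27.2 and 34.5 in high IMF, against 36.2, 40.2, 30.4, 45.0 and 34.1 in low IMF. The interaction of IMF group and title series was 0.76 log2 units, with an unadjusted p of 0.0029 and an adjusted p of 0.866 by limma. It was the 1 probe set of 12 with an unadjusted interaction p under 0.05, against 5.34% of the array, and 0 of the 12 (0% of the array) passed the adjustment. This probe set lay close to the dim limit, a mean log2 of 5.39, with means of 5.49 in high IMF and 5.48 in low IMF. By title series its means were 5.91 in S titles and 5.05 in the others. IGF2 probe set 4, below the limit, had the same sign of interaction in the fit without the filter, 1.27 log2 units (unadjusted p = 0.00155, limma adjusted p = 0.9235). Its intensities in S titles ran from 9.8 to 18.5 in high IMF and from 4.8 to 10.6 in low IMF. In the other titles they ran from 9.6 to 14.7 in high IMF and from 10.7 to 28.3 in low IMF, so the fat groups overlapped in both series. It was the 1 dim probe set of 13 with an unadjusted interaction p under 0.05 in that fit (4.62% of the array), and 0 were called (0%).

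IGF1R, the receptor for both ligands, was below the limit at both of its probe sets, and the brighter had log2 means of 5.05 in high IMF and 5.08 in low IMF. Probe set 1 had a lowest, median and highest intensity of 20.2, 33.2 and 49.1 in high IMF and 27.0, 31.9 and 52.0 in low IMF. Probe set 2 had 5.5, 12.4 and 23.8 in high IMF and 4.6, 11.8 and 18.3 in low IMF. The groups overlapped over nearly their whole range at both. In the fit without the filter the log2 differences were -0.03 (95% interval -0.33 to 0.26) for probe set 1 and 0.06 (-0.45 to 0.56) for probe set 2, with a limma adjusted p of 0.9998 for each. Between S and other titles they were -0.17 (limma adjusted p = 0.324) and 0.45 (limma adjusted p = 0.0988).

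IGFBP3, the main carrier of IGFs in blood, and IGFBP5, a binding protein of muscle and connective tissue, did not pass the test either. The IGFBP3 probe sets differed by -0.10 (95% interval -0.41 to 0.21) for probe set 1 and by -0.06 (-0.44 to 0.32) for probe set 2 on the log2 scale. The highest intensity at IGFBP3 probe set 1 was 351.1, in low IMF replicate 1. IGFBP5 had a lowest, median and highest intensity of 94.1, 160.9 and 236.8 in high IMF and 86.9, 116.0 and 273.3 in low IMF. Its log2 difference of 0.34 (-0.12 to 0.79) was of the same sign in S titles (0.29) and the others (0.38), with a limma adjusted p of 0.9997.

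**Figure D2:**
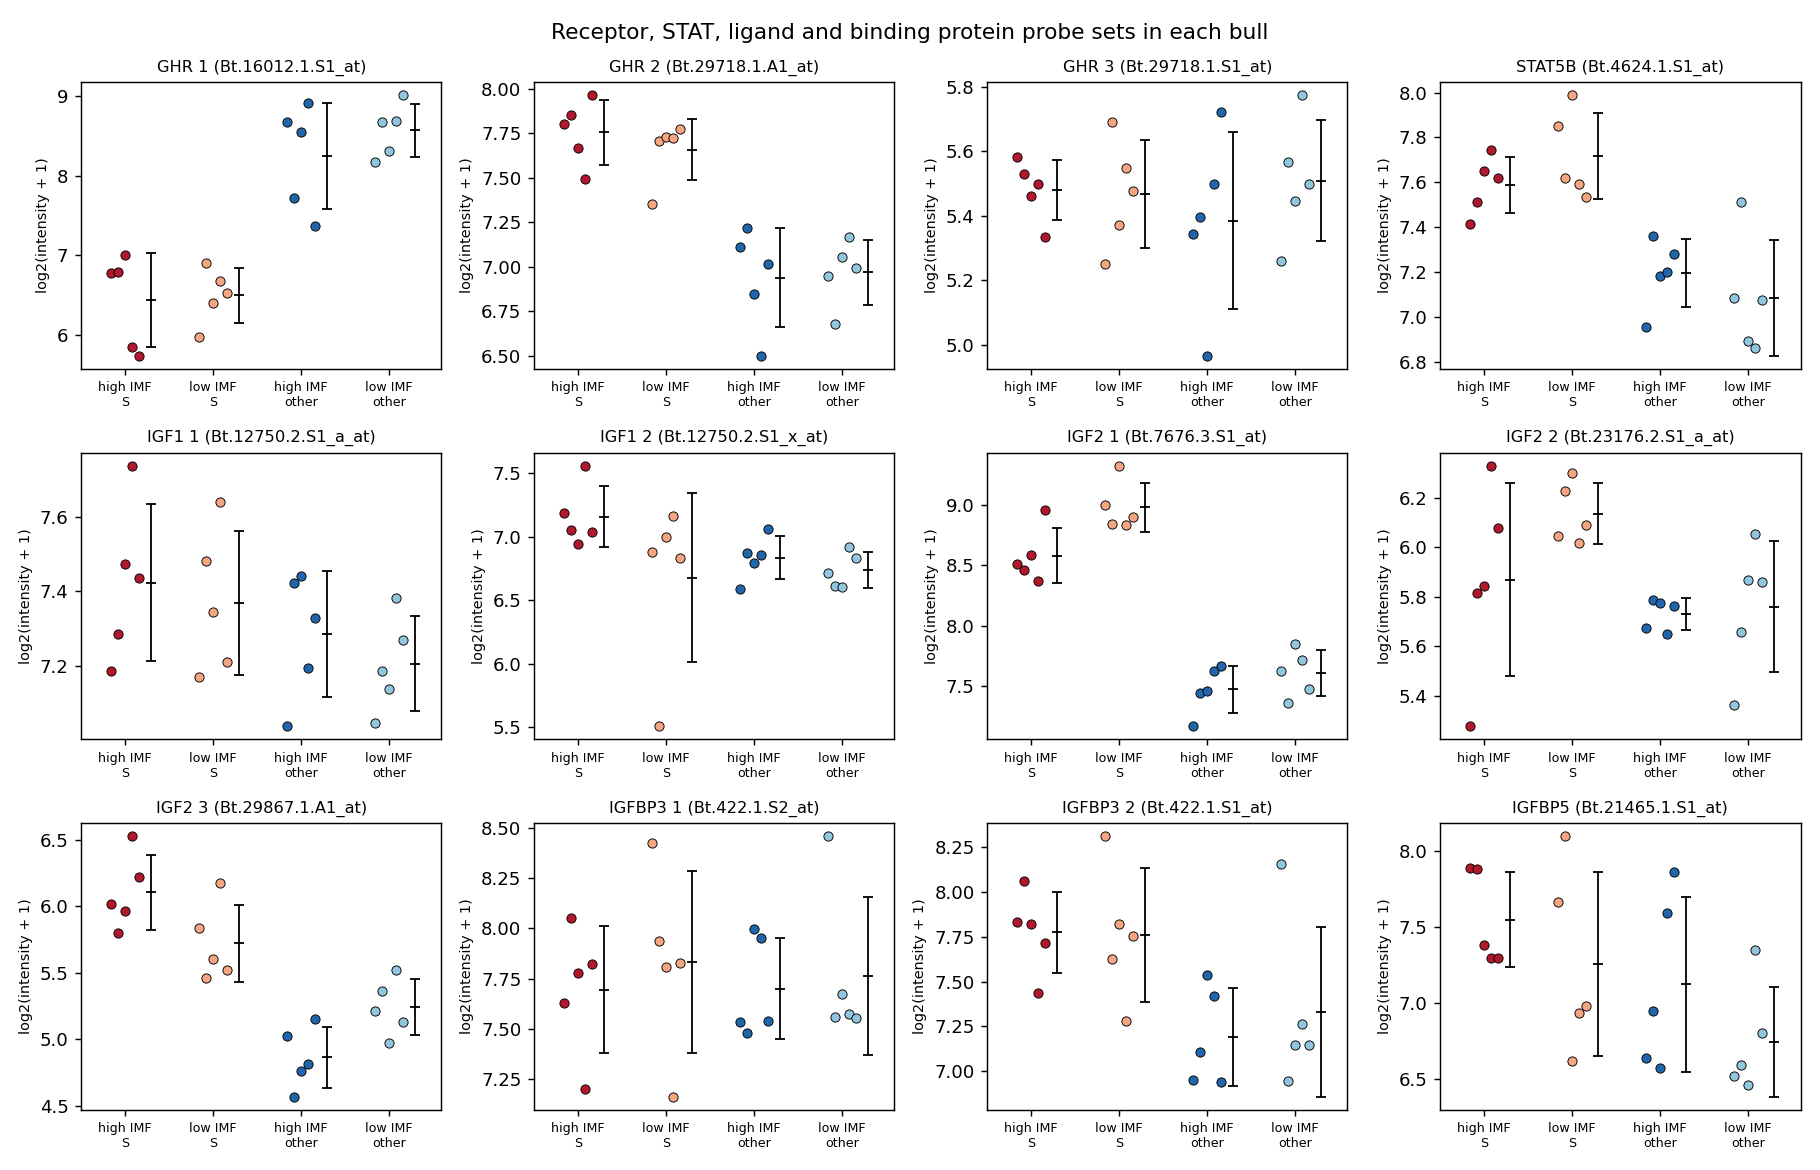
Signal of each bull at the 12 other tested probe sets of the axis, as log2(intensity + 1) on a scale of its own in each panel, with S titles in the left pair of columns, the other titles in the right pair, and high IMF left of low IMF. Points are bulls and bars are the mean ± SD of 5 bulls; GHR probe sets 1 and 2 and IGF2 probe set 1 part by title series without overlap, and none parts by IMF.

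More of the axis differed between the title series than between the fat groups. Of the 13 tested probe sets, 8 passed limma's test between S and other titles at an adjusted p under 0.05, which is 61.5% of them, beside 68.3% of all probe sets on the array. The same count of 8 had an unadjusted p under 0.05, beside 70.8% of the array. A total of 7 were higher in S titles and 1 was lower, where the array held 33.4% higher and 34.8% lower. IGF2 probe set 3, among the 7, passed the filter only through the S titles, as given below. S and other titles did not overlap at 3 probe sets, beside 19.6% of the array. Within high IMF 5 probe sets did not overlap (34.4% of the array), and within low IMF 4 did not (37.5%). The share called in the axis was near that of the whole array. Without the filter, 2 of the 13 dim probe sets were called, both lower in S titles (52.3% of the array called, 57.2% at an unadjusted p under 0.05). They were GHR probe set 8 and IGF1 probe set 3.

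SOCS2 itself did not pass this test. It averaged 6.54 ± 0.93 in S titles and 6.81 ± 0.61 in the others on the log2 scale (SD, n = 10 each), a difference of -0.27 (95% interval -0.81 to 0.26, limma adjusted p = 0.356). The difference was -0.63 within high IMF and 0.08 within low IMF. Without the 2 arrays of lowest median signal, both of high IMF bulls with S titles, it was -0.01.

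GHR gave 3 different answers at its 3 tested probe sets. Probe set 1 had a lowest, median and highest intensity of 52.4, 96.2 and 127.4 in S titles, against 164.2, 391.5 and 514.3 in the others. This is a log2 difference of -1.94 (SE 0.20), or 0.260-fold, with a limma adjusted p of 7.35e-08. Probe set 2 ran the other way, with 162.4, 210.5 and 248.4 in S titles against 89.6, 127.5 and 147.9 in the others, a log2 difference of 0.75 (SE 0.09, limma adjusted p = 6.97e-07). Probe set 3 had 37.0, 43.8 and 50.7 in S titles and 30.2, 43.4 and 53.7 in the others, a log2 difference of 0.03 (limma adjusted p = 0.797). This probe set lay close to the dim limit of 5.39, with a mean log2 of 5.46. Among the dim ones, probe set 8 had a median intensity of 4.3 in S titles, against 11.2 in the others, with overlap, and a log2 difference of -1.32 without the filter (limma adjusted p = 0.0039). No single direction for GHR can be read from these.

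STAT5B was higher in S titles, with a lowest, median and highest intensity of 169.7, 195.6 and 252.9, against 115.3, 139.5 and 181.3 in the others. Its log2 difference was 0.51 (SE 0.09, limma adjusted p = 4.47e-05). A single bull without an S title, low IMF replicate 2 at 181.3, reached into the range of the S titles.

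Among the ligands, IGF2 was higher in S titles at its 3 tested probe sets, and the 2 tested IGF1 probe sets did not pass. IGF2 probe set 1 had a lowest, median and highest intensity of 329.3, 457.3 and 640.7 in S titles, against 142.4, 186.3 and 229.2 in the others, a log2 difference of 1.24 (SE 0.10) or 2.37-fold (limma adjusted p = 1.49e-09). IGF2 probe set 3 rose by 0.86 log2 units (SE 0.14, limma adjusted p = 1.4e-05), with 43.2 to 91.2 in S titles and 22.7 to 45.0 in the others. Its log2 mean was 5.91 in S titles and 5.05 in the others, on either side of the dim limit of 5.39. It passed the filter only through the S titles, so its call is given as a description. IGF2 probe set 2 was higher by 0.26 (SE 0.11, limma adjusted p = 0.0418). That call was lost without any 1 of 11 arrays, those of high IMF replicates 1, 4, 9 and 10 and low IMF replicates 1, 2, 5, 6, 7, 8 and 10, with adjusted p up to 0.0877. The dim IGF2 probe set 4 had the other sign, a log2 difference of -0.34 in the fit without the filter, and did not pass (limma adjusted p = 0.2085). The IGF1 probe sets differed by 0.15 (probe set 1, limma adjusted p = 0.112) and 0.13 (probe set 2, limma adjusted p = 0.475). IGF1 probe set 2 passed (log2 difference 0.28, limma adjusted p = 0.00793) without low IMF replicate 7, and probe set 1 passed with the arrays centred on their medians (0.22, limma adjusted p = 0.0408). The dim IGF1 probe set 3 ran the other way, with a median intensity of 4.6 in S titles, against 15.3 in the others, and overlap between them. Its log2 difference was -1.63 in the fit without the filter (limma adjusted p = 0.000133), so the IGF1 probe sets did not share a direction.

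Of the IGFBP3 probe sets, 1 passed between the title series and 1 did not. Probe set 2 was higher in S titles, with a lowest, median and highest intensity of 154.7, 220.0 and 315.9, against 121.9, 140.7 and 283.7 in the others, a log2 difference of 0.50 (SE 0.14, limma adjusted p = 0.00419). At probe set 1 the values were 142.0, 224.2 and 343.4 in S titles and 177.4, 188.4 and 351.1 in the others, a log2 difference of 0.03 (limma adjusted p = 0.858). IGFBP5 was higher by 0.47 (SE 0.19, limma adjusted p = 0.0367). Its call was lost without any 1 of 10 arrays, replicates 1, 2, 3, 6 and 7 of either IMF group, with adjusted p up to 0.0771.

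Marker genes of other cells were summed per bull, with no test of the lists. The summed intensity of 8 adipocyte genes with a probe set, of 10 listed, ran from 1406 to 22195 in high IMF and from 557 to 10272 in low IMF, and from 1055 to 22195 in S titles and from 557 to 4861 in the others. The ranges overlapped in both comparisons. Median FABP4, a fatty acid carrier, was 1234 in high IMF and 428.2 in low IMF, and the medians of ADIPOQ, LEP, CIDEA, CIDEC, THRSP and LIPE were also higher in high IMF. Only median CFD, a complement protease of fat cells, was lower, at 219.7 in high IMF and 235.1 in low IMF. The 6 macrophage genes with a probe set, of 8 listed, summed to between 710 and 1051 in S titles and between 341 and 905 in the others. The 3 satellite cell genes with a probe set, of 6 listed, summed to between 395 and 606 in S titles and between 199 and 323 in the others. These genes differed in direction. Median MYOD1 was 203.1 in S titles and 74.7 in the others, and median CD34 was 212.4 and 113.6, while median MYF5 was 46.8 and 54.7. ADIPOQ and LEP, which define fat cells, were below the dim limit. The part of these cells in the differences of the axis was not tested.

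**Figure D3:**
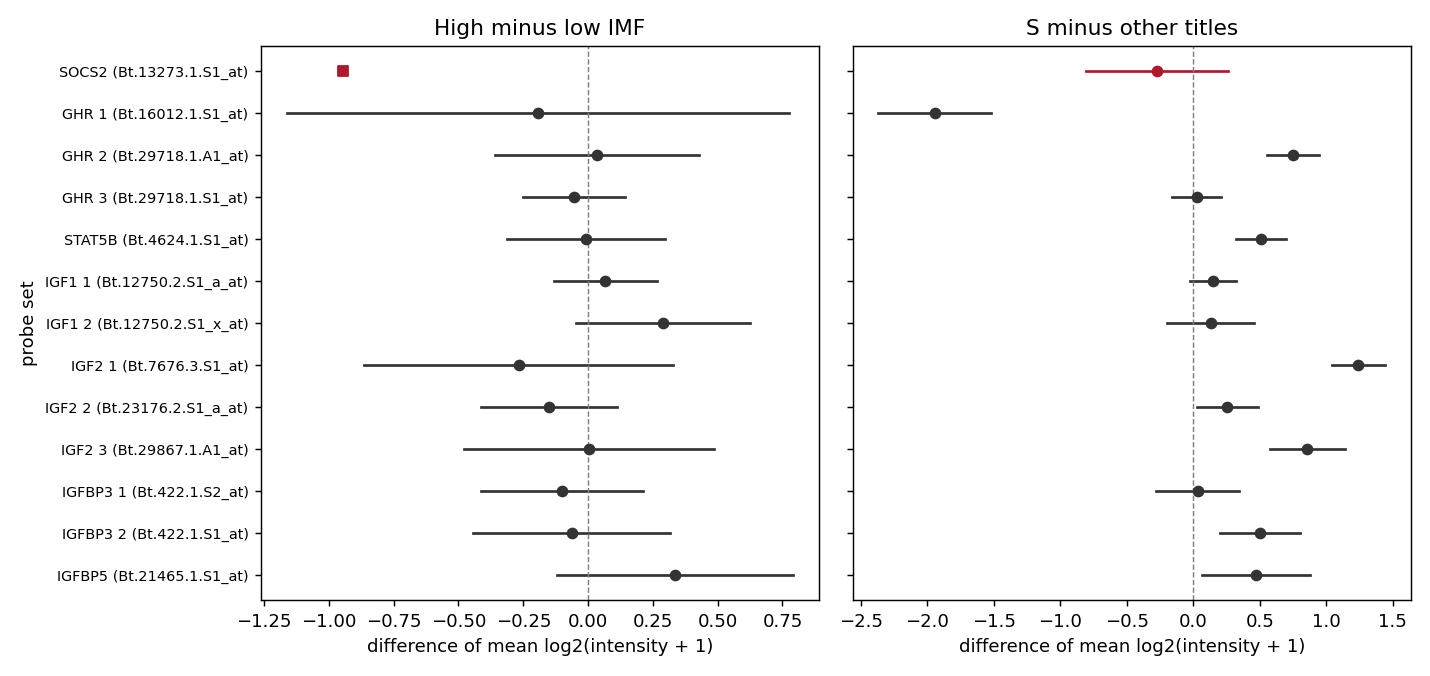
Difference of mean log2(intensity + 1) for the 13 tested probe sets, high minus low IMF on the left and S minus other titles on the right, with 95% intervals from limma as lines. SOCS2 has a square with no interval on the left because it was chosen for that difference. All other intervals on the left, from the fit without a title series term, cover 0, and 8 on the right do not.

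Over all 20 bulls no relation of a member with SOCS2 passed a test. A total of 12 relations were computed over 20 bulls on the log2 scale, and 0 had a permutation p under 0.05 before or after Benjamini-Hochberg adjustment, by Pearson's r or by Spearman's rho. For 3 probe sets, GHR probe sets 1 and 2 and IGF2 probe set 1, the title series form separate clusters, so no pooled r is given. Among the other 9 the pooled r ran from -0.30 for IGFBP5 (rho -0.25, permutation p = 0.193 and 0.297, adjusted p = 0.940 and 0.904) to 0.40 for IGF2 probe set 2 (rho 0.24, permutation p = 0.0802 and 0.300, adjusted p = 0.940 and 0.904). The r of IGF2 probe set 2 rested on the 2 bulls farthest from the SOCS2 median, and was 0.07 without them. STAT5B had r = -0.04 and the IGF1 probe sets had r = -0.01 and r = -0.13. Across 7015 genes, r with SOCS2 had a median of 0.08, and the middle 95% lay between -0.40 and 0.56.

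With the means of the 4 sets of IMF and title series taken out, IGF2 probe set 1 stood highest. Its r with SOCS2 was 0.47 (permutation p = 0.0672) and its rho 0.49 (permutation p = 0.0453), and neither passed adjustment over the 12 relations (adjusted p = 0.717 and 0.544). Its r was 0.77 within S titles (rho 0.73, permutation p = 0.00942 and 0.0202, adjusted p = 0.113 and 0.243, n = 10) and 0.52 within the others (rho 0.33, permutation p = 0.124 and 0.350, adjusted p = 0.611 and 0.466, n = 10). Without the 2 bulls farthest from the SOCS2 median of their series, r was 0.72 in S titles and -0.01 in the others. Other relations changed sign between the series. For IGFBP5, r was -0.66 in S titles (permutation p = 0.0353, adjusted p = 0.212) and 0.33 in the others. For IGF2 probe set 3, r was -0.48 in S titles and 0.65 in the others (permutation p = 0.0379, adjusted p = 0.455). For STAT5B, r was 0.55 in S titles (permutation p = 0.0961, adjusted p = 0.288) and -0.15 there without the 2 farthest bulls, and it was -0.24 in the others. Within IMF groups, each of 12 relations over 10 bulls, the smallest adjusted p was that of IGF1 probe set 2 in low IMF. Its rho there was 0.83 (permutation p = 0.00423, adjusted p = 0.0508) and its r 0.62 (permutation p = 0.0477, adjusted p = 0.573), or 0.69 without the 2 bulls farthest from the SOCS2 median. Those 2 did not include low IMF replicate 7, the lowest low IMF bull at both genes (44.4 at IGF1 probe set 2 and 87.28 at SOCS2). The brighter IGF1 probe set 1 had a rho of 0.41 in low IMF (permutation p = 0.25, adjusted p = 0.636) and an r of 0.19 (permutation p = 0.608, adjusted p = 0.964). In high IMF the rho of IGF1 probe set 2 was -0.44 (permutation p = 0.204, adjusted p = 0.490) and its r -0.40 (permutation p = 0.247, adjusted p = 0.630). The difference between the IMF groups was not tested.

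**Figure D4:**
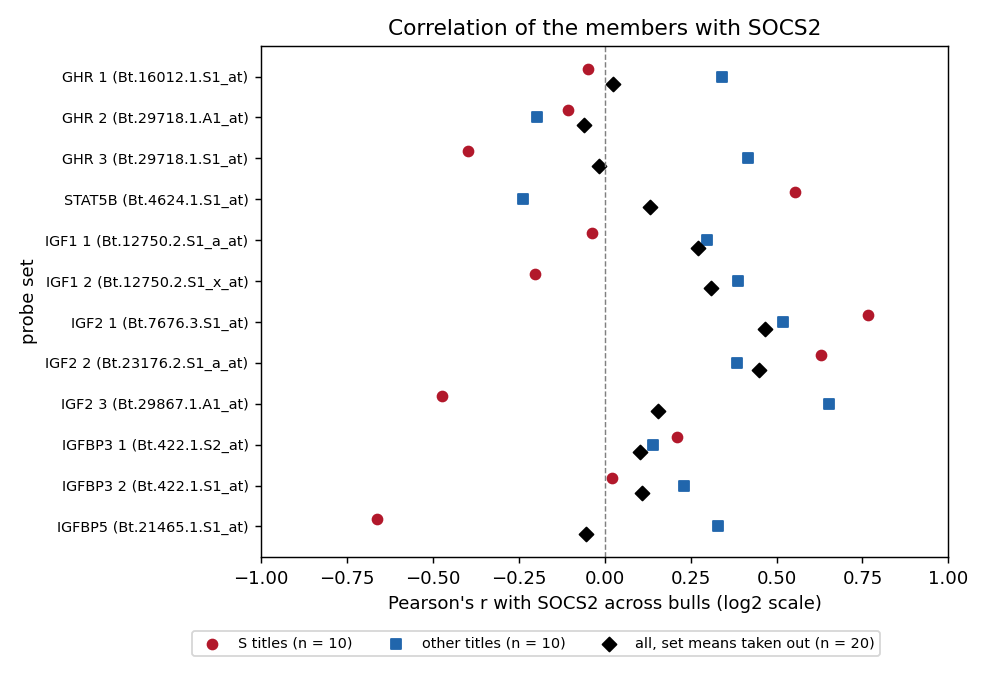
Pearson's r between SOCS2 and each other tested probe set across bulls on the log2 scale, within S titles (circles), within the other titles (squares) and over all bulls with the means of the 4 sets taken out (diamonds). The 3 values of a probe set often lie on both sides of 0; those of IGF2 probe set 1 are 0.77, 0.52 and 0.47.

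The genes whose signal was most like SOCS2 across the 20 bulls lay outside the axis. They were picked as the 5 highest and 5 lowest r among 7015 genes, so the values are a description. The highest were XPO4, a nuclear transport receptor (r = 0.88), MYH7, the slow fibre myosin heavy chain (0.81), MBD1, which binds methylated DNA (0.78), BPNT2, a nucleotide phosphatase of the Golgi (0.75), and TCAP, a protein of the sarcomere's Z disc (0.74). With the set means taken out, r was 0.79 for XPO4, 0.75 for MYH7, 0.64 for MBD1, 0.73 for BPNT2 and 0.58 for TCAP. Within S titles alone r ran from 0.83 for TCAP to 0.94 for XPO4, and within the others from 0.42 for BPNT2 to 0.73 for MBD1. With the arrays centred on their medians r was 0.36 for TCAP, and between 0.70 and 0.84 for the other 4. The lowest r values were those of PRKCA, a protein kinase C (-0.76), TKDP1, a Kunitz domain protein named for the placenta (-0.75), CLDN10, a tight junction protein (-0.70), BCAN, a matrix proteoglycan (-0.69), and SMAD5, a signal carrier of bone morphogenetic proteins (-0.67). With the set means taken out, r was -0.68 for PRKCA, -0.75 for TKDP1, -0.52 for CLDN10, -0.59 for BCAN and -0.42 for SMAD5. Within S titles alone r ran from -0.92 for BCAN to -0.66 for SMAD5, and within the others from -0.83 for PRKCA to -0.26 for BCAN. With the arrays centred on their medians r lay between -0.78 and -0.70 for these genes.

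The wider pathway was read through 6 lists with 84 genes, of which 55 had a probe set and 43 were tested. Between high and low IMF, 0 of the 43 genes were called by limma (0% of the array) and 0 had an unadjusted p under 0.05 (1.66% of the array). This fit had no term for title series. With that term 0% of the array was called and 7.34% had an unadjusted p under 0.05, and the 43 genes are not counted in it here. A total of 19 were higher and 24 lower in high IMF, and the median log2 difference was -0.01. Between S and other titles, 26 of the 43 were called, beside 68.3% of the array, and the median log2 difference was 0.16. For the interaction of IMF and title series, 0 of the 43 were called (0% of the array) and 3 had an unadjusted p under 0.05 (5.34% of the array).

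Of 8 tested genes on the list for signalling from the receptor to STATs, 4 were higher in high IMF and 0 passed. The list also holds phosphatases and adaptors, and JAK2 was on it but not among the tested genes. The smallest p values belonged to the phosphatase PTPN6, with a log2 difference of 0.14, and the adaptor SHC1, with 0.17. In S titles 4 rose and 2 fell (68.3% of the array called), led by the adaptor SH2B1 (0.64, limma adjusted p = 7.52e-08) and STAT3 (0.96, limma adjusted p = 8.11e-08). Among SOCS proteins and the ligase parts they bind, 1 of 5 was higher in high IMF and 0 passed, with SOCS5 at -0.23 and the ring protein RNF7 at 0.09. In S titles 0 of the 5 rose and 2 fell (68.3% of the array called), the cullin CUL5 by 2.28 and SOCS5 by 1.17 log2 units. CUL5 had log2 means of 5.07 in S titles and 7.35 in the others, so its S titles lay below the dim limit of 5.39. It passed the filter only through the other titles, so its call is given as a description.

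CISH, a SOCS family member that STAT5 turns on in mouse and human cells, is named here after its values were seen, as the nearest relative of SOCS2 among the tested genes. Its log2 mean was 8.80 ± 0.92 in high IMF muscle, against 8.92 ± 0.76 in low IMF muscle (SD over 10 bulls each), which differ by -0.12 (limma adjusted p = 0.9997). The difference was -0.73 within S titles and 0.50 within the others. Of the 6 tested genes known as STAT5 targets in mouse and human, 4 were higher in high IMF and 0 passed, with BCL2L1, which blocks cell death, at 0.16 and the cyclin CCND2 at 0.11. In S titles 3 of the 6 rose and 0 fell, a smaller share than the 68.3% called over the array, led by the kinase PIM1 (0.76) and BCL2L1 (0.43).

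Of 9 further binding proteins, proteases and receptors, 6 were higher in high IMF and 0 passed. The insulin receptor INSR differed by -0.26 (0.01 at its other tested probe set) and IGFBP4 by 0.30 on the log2 scale. In S titles 4 of the 9 rose and 1 fell (68.3% of the array called), led by the protease PAPPA, which cuts IGFBP4 (0.86, limma adjusted p = 9.75e-08), and IGFBP4 itself (1.26, limma adjusted p = 2.46e-05). PAPPA had log2 means of 6.01 in S titles and 5.15 in the others, where the dim limit was 5.39. It passed the filter only through the S titles, so its call is given as a description. Of 7 tested imprinted growth genes, 3 were higher in high IMF and 0 passed, with MEST at 0.34 (0.03 at its other tested probe set) and the adaptor GRB10 at -0.18. The genes of the same list that bind IGF mRNA were not among those tested. In S titles 2 of the 7 rose and 0 fell (68.3% of the array called), DLK1 by 1.49 and the noncoding MEG3 by 0.53 log2 units. The 3 other tested MEG3 probe sets ran from -0.04 to 0.49. DLK1 and MEG3 lie in the same imprinted region.

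Of 10 genes downstream of IGF1R, 2 were higher in high IMF and 0 passed. The kinase GSK3B differed by 0.19 at its brightest probe set and by -0.13 and -0.11 at its 2 other tested ones, so its direction depends on the probe set. PIK3CA, a catalytic subunit of PI3 kinase, differed by -0.54 on the log2 scale. In S titles 5 of the 10 rose and 3 fell (68.3% of the array called). AKT2 was higher by 0.88 (limma adjusted p = 4.57e-08) and EIF4EBP1, the brake on cap-dependent translation, by 1.38 (limma adjusted p = 1.8e-07).

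**Figure D5:**
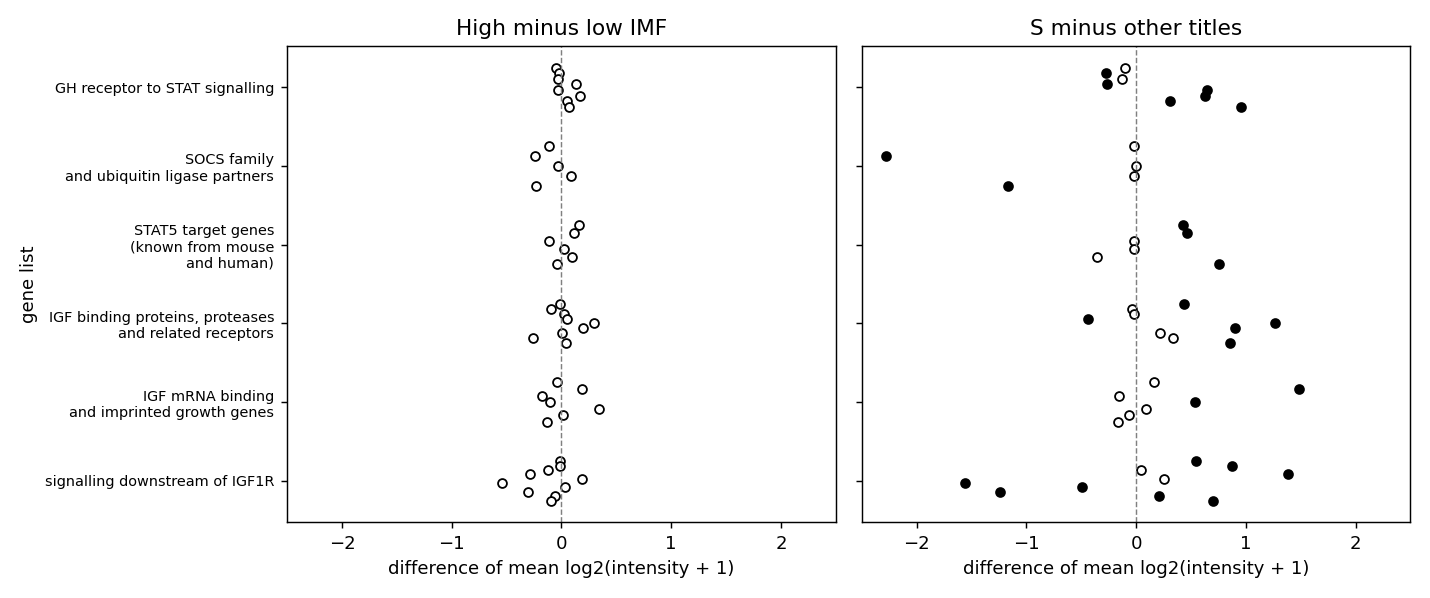
Difference of mean log2(intensity + 1) for the tested genes of 6 pathway lists, high minus low IMF on the left and S minus other titles on the right, with 1 circle per gene and filled circles for a limma adjusted p under 0.05. On the left no circle is filled and all lie between -0.54 and 0.34, and on the right 26 of the 43 genes are filled (genes on more than 1 list are drawn in each).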

How the data were processed

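The values are linear intensities per probe set, as the authors deposited them for 20 Affymetrix cattle arrays, 1 per bull. Per the submitters' processing notes, GCOS 1.1.1 and Affymetrix Expression Console 1.1 were used; how probes were summarised into probe sets was not given in the sources used here. Total RNA was labelled as biotinylated cRNA, per the labels' protocols. The deposited intensities were taken as log2(value + 1) and their scaling between arrays was kept. Folds on this scale are too small for dim probe sets. The number of arrays limits the precision.

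Of 24128 probe sets, 112 controls were removed, and the 40% of the remaining 24016 with the lowest mean were left out, so 14409 were tested, from an intensity of about 40.8 upwards. The platform annotation gave 1 symbol to 13318 probe sets, several to 86 and none to 10724. By gene identifier, 13283 were found in RefSeq's cattle gene table, with 0 symbols altered. No genome build is stated, so no coordinates are given.

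Differences were tested with limma 3.58.1 in R 4.3.3 (two-sided, Benjamini-Hochberg over all tested probe sets), with IMF alone, with title series beside IMF, and with their interaction. Nothing in the labels says which animals share an origin, and p-values measure the spread between bulls. The series text names a paired test, but no animals are paired in the labels, so all fits were unpaired. Correlations used 100000 permutations.

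The members and lists were chosen with earlier results of these data known. The text names all members, in each list the 2 genes with the smallest p in the IMF and in the title series difference, and the 5 genes with the highest and the 5 with the lowest r with SOCS2. For genes with several tested probe sets, the one with the highest mean was used. Alternatives were a pseudocount of 16, no filter, median centring, quantile normalization, a t-test, title series in the model, each series or IMF group alone, and leaving out single arrays or the 4 arrays with high albumin.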

Additional observations from a re-analysis of the deposited data

Results flagged for a closer look

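A gap test (Dixon, 95%) was run in 78 groups of 5 or 10 bulls, 1 for each tested probe set and set of bulls. It gave 6 flags, from 4 bulls, for values that stood apart from the rest of their group. Chance flags about 5% of groups, but the groups share bulls, so 1 value can be flagged more than once. The values are on the log2 scale, with intensities beside them. GHR probe set 2 was lowest among S-titled low IMF bulls in low IMF replicate 6, at 7.35 (162.4, next 208.1). GHR probe set 3 was lowest among high IMF bulls in high IMF replicate 3, at 4.97 (30.2, next 39.3). IGF1 probe set 2 was lowest in low IMF replicate 7, at 5.51 (44.4), both among all low IMF bulls (next 96.4) and among the S-titled ones (next 113.2). Both IGFBP3 probe sets were highest in the same bull, low IMF replicate 1, among low IMF bulls without S: 8.46 at probe set 1 (351.1, next 203.1) and 8.15 at probe set 2 (283.7, next 152.7).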

How the results depend on the processing

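The counts over the whole array stayed on their side under each setting run: 0 called for IMF and for the interaction, and for the title series 8848 to 12549 outside single IMF groups, 7317 within high IMF, 7922 within low IMF and 9566 to 9811 without any single array. SOCS2 stayed lower in high IMF without any single array (-1.04 to -0.77). The values that turned sign, none past the adjusted threshold, are given in log2 units or as r with the probe set's number after its gene, and the cause was not tested; r within 1 IMF group spans both title series. With arrays centred on their medians, the IMF difference was 0.030 for STAT5B, and the interaction was 0.0094 for IGF1 1, and r with SOCS2 was -0.15 for GHR 3. After quantile normalization, the IMF difference was 0.046 for STAT5B, and the interaction was 0.051 for IGF1 1, 0.029 for IGFBP3 1. With a title series term and arrays centred (added after seeing the data), the IMF difference was 0.030 for STAT5B. Within S titles, the IMF difference was 0.014 for GHR 3, 0.015 for IGFBP3 2, and r with SOCS2 was -0.047 for GHR 1, -0.40 for GHR 3, 0.55 for STAT5B, 0.022 for IGFBP3 2. Within the other titles, the IMF difference was -0.030 for GHR 2, 0.11 for STAT5B, -0.38 for IGF2 3, and r with SOCS2 was 0.30 for IGF1 1, 0.39 for IGF1 2, 0.65 for IGF2 3, 0.23 for IGFBP3 2, 0.33 for IGFBP5. Within high IMF, the title series difference was -0.0051 for IGFBP3 1, and r with SOCS2 was -0.27 for GHR 3, 0.11 for IGF1 1, -0.27 for IGF2 1. Within low IMF, the title series difference was 0.085 for SOCS2, -0.042 for GHR 3, -0.061 for IGF1 2, and r with SOCS2 was -0.069 for GHR 1, 0.25 for GHR 2, 0.036 for STAT5B, 0.19 for IGF1 1, 0.62 for IGF1 2, 0.31 for IGF2 3, -0.24 for IGFBP3 1, 0.012 for IGFBP3 2. Without the 4 arrays of high albumin, the title series difference was -0.0008 for IGFBP3 1, and r with SOCS2 was 0.0032 for IGF1 2, 0.13 for IGFBP3 2. Without those arrays and with a title series term, the IMF difference was 0.0033 for STAT5B, -0.098 for IGF2 3. Without the 2 dimmest arrays (added after seeing the data), the IMF difference was 0.061 for GHR 1, -0.040 for GHR 2, -0.19 for IGF2 3, and r with SOCS2 was 0.081 for STAT5B, 0.11 for IGF1 1, 0.23 for IGF1 2, 0.20 for IGF2 3, -0.018 for IGFBP3 1, 0.11 for IGFBP3 2. With the means of the 4 sets taken out, r with SOCS2 was -0.018 for GHR 3, 0.13 for STAT5B, 0.27 for IGF1 1, 0.31 for IGF1 2, 0.15 for IGF2 3, 0.11 for IGFBP3 2. With set means taken out and arrays centred (added after seeing the data), r with SOCS2 was -0.048 for GHR 1, -0.13 for GHR 3, 0.0078 for STAT5B, 0.13 for IGF1 1, 0.28 for IGF1 2, 0.073 for IGF2 3, -0.022 for IGFBP3 1, 0.0081 for IGFBP3 2. Without the 2 bulls farthest from the SOCS2 median, r with SOCS2 was -0.065 for GHR 3, 0.19 for STAT5B, 0.20 for IGFBP3 2. Leaving out single arrays gave IMF differences of -0.036 to 0.13 for GHR 2, -0.070 to 0.056 for STAT5B, -0.11 to 0.10 for IGF2 3, -0.13 to 0.022 for IGFBP3 2, and title series differences of -0.026 to 0.063 for GHR 3, -0.040 to 0.11 for IGFBP3 1. Title series calls were lost without a filter for IGF2 2 (adjusted p = 0.0616 by limma) and IGFBP5 (0.0567), while the dim IGF1 3 (-1.63, adjusted p = 0.000133) and GHR 8 (-1.32, 0.0039) were called there. The IGFBP5 call was also lost without the albumin arrays (0.110) and without the 2 dimmest arrays (0.0591). Within 1 IMF group calls were lost for IGF2 2 (high IMF, 0.508), IGFBP3 2 (low IMF, 0.139) and IGFBP5 (0.186 in high and 0.123 in low IMF). No paired analysis was possible because the labels pair no bulls and the replicate numbers only follow the order of the samples. Dim probe sets, IGF1R among them, lie near the lower end of the signal.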
